A study of Mus musculus with 10 samples.

Results

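Mononuclear phagocytes (macrophages, monocytes and dendritic cells) were followed in whole colon through 38 genes that mark them. The genes were found by their symbol among the 29320 genes of the deposited count table, and all 38 were present and passed the filter on low counts. Their levels were not used to choose them, although the list was drawn up with earlier results of these data known. By role, 7 genes mark macrophages in general, 9 encode scavenger and related receptors of resident macrophages, 5 encode C1q and proteins of lipid handling, 5 encode Fc receptors and their adaptors, 6 mark monocytes or encode lysozyme, and 6 mark dendritic cells. The colons came from female mice aged 8 weeks. WT mice (C57BL/6) and mice lacking ERdj5, a reductase of the endoplasmic reticulum encoded by Dnajc10 (ERdj5 KO), were left untreated or were given 2% dextran sulfate sodium (DSS) in their water for 5 days. DSS injures the colon epithelium. All groups were labelled Day 5. There were 2 libraries from untreated WT, 3 from DSS-treated WT, 2 from untreated KO and 3 from DSS-treated KO mice. The loss of ERdj5 was not limited to a cell type, so every cell of the KO colon carried it. The WT and KO mice were obtained from separate suppliers, so that genotype and origin cannot be told apart. The labels do not tie libraries to animals, and p-values therefore measure the spread between libraries.

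The healthy colon holds a large pool of macrophages. In the mouse most of them are replaced throughout life by blood monocytes, which enter the tissue through the chemokine receptor CCR2 and, as they mature, lose Ly6C and gain CX3CR1, F4/80 and the receptors with which macrophages take up dying cells and microbes. Growth through the receptor CSF1R keeps these cells alive, and the transcription factor PU.1, encoded by Spi1, is needed to make them. Conventional dendritic cells arise from their own precursor under the receptor FLT3 and carry antigen to T cells. In DSS colitis, newly arrived monocytes and neutrophils join the resident cells. In whole tissue, fewer cells of a type and less RNA per cell cannot be told apart.

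The libraries held 49689389 to 72197887 counted reads. Levels are given as CPM, the read count of a gene per library size after TMM scaling. Dnajc10, the targeted gene, had 113 to 139.7 CPM in the WT libraries and 18.4 to 30.4 CPM in the KO libraries. The 12 colon epithelium markers were present everywhere, at a summed 10769 to 17305 CPM. Other cell types moved with the groups. The 15 smooth muscle genes summed to 3813 and 5806 CPM in untreated WT, 3265 to 5891 CPM in DSS-treated WT, 11014 and 12980 CPM in untreated KO and 762 to 1226 CPM in DSS-treated KO mice. The 12 genes shared by all leukocytes summed to 504 and 861, 339 to 516, 102 and 201, and 247 to 623 CPM in the same order. The 15 neutrophil markers were highest in the KO DSS 1 library (1009 CPM, against 392.2 and 532 CPM in the other DSS-treated KO libraries and 150.04 to 352 CPM elsewhere). The part of these shifts in the values below was not tested, and the summed levels are given again beside the results they move with.

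Summed over the 38 genes, phagocyte RNA was 1141 and 877 CPM in untreated WT, 564, 1018 and 849 CPM in DSS-treated WT, 378 and 418 CPM in untreated KO, and 759, 713 and 390 CPM in DSS-treated KO mice. Every untreated KO library therefore lay below every WT library, while the DSS-treated KO libraries overlapped both. Per kilobase of exon, Lyz2 had the highest group mean in each of the 4 groups (167 CPM per kb in untreated WT and 62.2 CPM per kb in untreated KO mice), followed in each by Apoe and C1qa. At the other end of the same length-scaled order, Vsig4 had 0.209 CPM per kb in untreated WT and Zbtb46 0.352 CPM per kb. The largest move in this order was that of Chil3, which was the 35th of 38 genes in untreated WT, the 25th in DSS-treated WT, the 38th in untreated KO and the 14th in DSS-treated KO mice. Fcgr4 was the 14th, the 8th, the 23rd and the 10th in the same order of groups. Mertk went from the 15th and the 12th in WT to the 6th in untreated KO and back to the 16th in DSS-treated KO mice.

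**Figure D1:**
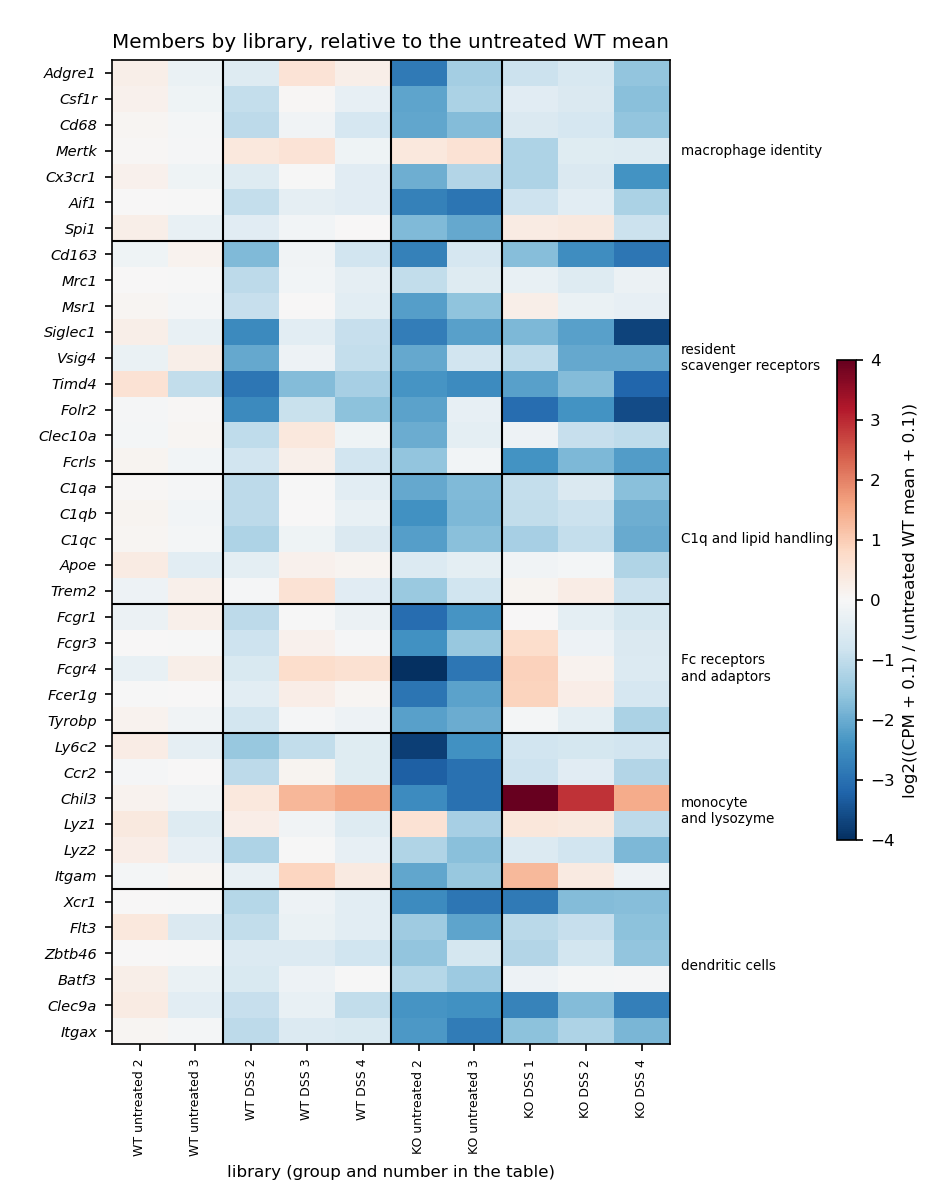
Level of each of the 38 genes (rows, grouped by role) in each library (columns), as the log2 ratio to the mean of untreated WT after adding 0.1 CPM to both. The 2 untreated KO columns are blue for nearly all genes, Mertk being the exception that is red there and blue in DSS-treated KO, and Chil3 is deep red in the KO DSS 1 library.

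In untreated mice, loss of ERdj5 went with less phagocyte RNA. Of the 38 genes, 21 had lower levels in KO mice and 0 had higher levels at an adjusted p under 0.05 (quasi-likelihood test of edgeR, adjusted after Benjamini and Hochberg), beside 5.97% of the 20472 tested genes called lower and 3.87% called higher. None was higher at an unadjusted p under 0.05 or by DESeq2 either (0 and 0 genes). Fold changes are on the log2 scale and are given ± their standard error. The median log2 fold change of the 38 genes was -1.92, and that of all tested genes 0.01. The falls included 5 of 7 macrophage genes, all 5 Fc receptor genes, 3 of 5 genes of C1q and lipid handling and 5 of 6 dendritic cell genes, but 1 of 9 scavenger receptors and 2 of 6 monocyte and lysozyme genes. The 12 pan-leukocyte genes moved with them, with 10 called lower, and 18 of 19 genes of T and NK cells were called lower. In the other direction, 11 of 15 smooth muscle genes and 5 of 13 genes of enteric neurons and glia were called higher, and the smooth muscle genes summed to 11014 and 12980 CPM in untreated KO against 3813 and 5806 CPM in untreated WT mice. The part of these shifts was not tested. The count of phagocyte falls rested on few libraries, being 4 without KO untreated 2, 6 without KO untreated 3, 7 without WT untreated 2 and 11 without WT untreated 3. Aif1, Ly6c2, Ccr2 and Itgax were called lower in all 16 other fits.

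Within WT mice, DSS moved none of the 38 genes past the threshold. EdgeR called 0 higher and 0 lower, beside 0.0195% of all tested genes higher and 0.00488% lower, and DESeq2 also called 0 in each direction. At an unadjusted p under 0.05 there were 5 of the 38, and the median log2 fold change was -0.39. Within KO mice, DSS raised 16 of the 38 genes and lowered 3, beside 23.1% of all tested genes higher and 22.3% lower, so the share that rose stood above the background and the share that fell below it. Other cell types moved in the same comparison, with 12 of 15 neutrophil genes and 11 of 12 pan-leukocyte genes called higher and 15 of 15 smooth muscle genes called lower, and their part in the rise was not tested. The median log2 fold change was 0.86 for the 38 genes and 0.02 for all tested genes. The rise covered all 5 Fc receptor genes, 4 of 6 monocyte and lysozyme genes, 3 of 7 macrophage genes, 2 of 6 dendritic cell genes, Msr1 among the scavenger receptors and C1qa. The 3 that fell were Mertk, Folr2 and Fcrls, of which only Mertk kept its call without KO untreated 3, without KO DSS 1 or without KO DSS 4.

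The response to DSS differed between the genotypes for 16 of the 38 genes. For 15 the response was higher in KO mice and for 1, Mertk, it was lower, beside 13.8% of all tested genes higher and 13% lower. Other cell types moved in the same test. All 12 pan-leukocyte genes and 16 of 19 genes of T and NK cells were called higher, and 15 of 15 smooth muscle genes lower. Their part in these differences was not tested. This test of the difference uses the same untreated libraries as the comparisons above, so it is not a second set of data. The 15 were 9 without KO untreated 2 or without WT untreated 2 and 10 without KO untreated 3, and Mertk was not called without KO untreated 3 or WT untreated 3. Aif1, Msr1, Fcgr1, Fcer1g, Ly6c2, Ccr2 and Itgax were called in all 15 other fits that could be made for this test.

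After DSS, the summed phagocyte RNA of KO and WT colons overlapped, and single genes differed. Lower in KO mice were 5 of the 38 genes (Mertk, Fcrls, Xcr1, Clec9a and Itgax) and higher was 1 (Chil3), beside 14.9% of all tested genes lower and 14.9% higher. Both shares of the 38 were thus at or below the background. The median log2 fold change was -0.45 for the 38 genes and -0.04 for all tested genes. Every DSS-treated KO library lay below every DSS-treated WT library for 7 of the 38 (Adgre1 and Cx3cr1 beside the 5 named) and above for 0, while 22.4% and 20.6% of all tested genes were separated in those directions. Without WT DSS 2 the 5 lower genes became 11 and without WT DSS 3 they became 3, and Mertk and Clec9a were called in all 16 other fits. The study's own thresholds (a fold over 3 with p under 0.01) are not counted among these fits. Under them Mertk and Itgax were not called.

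**Figure D2:**
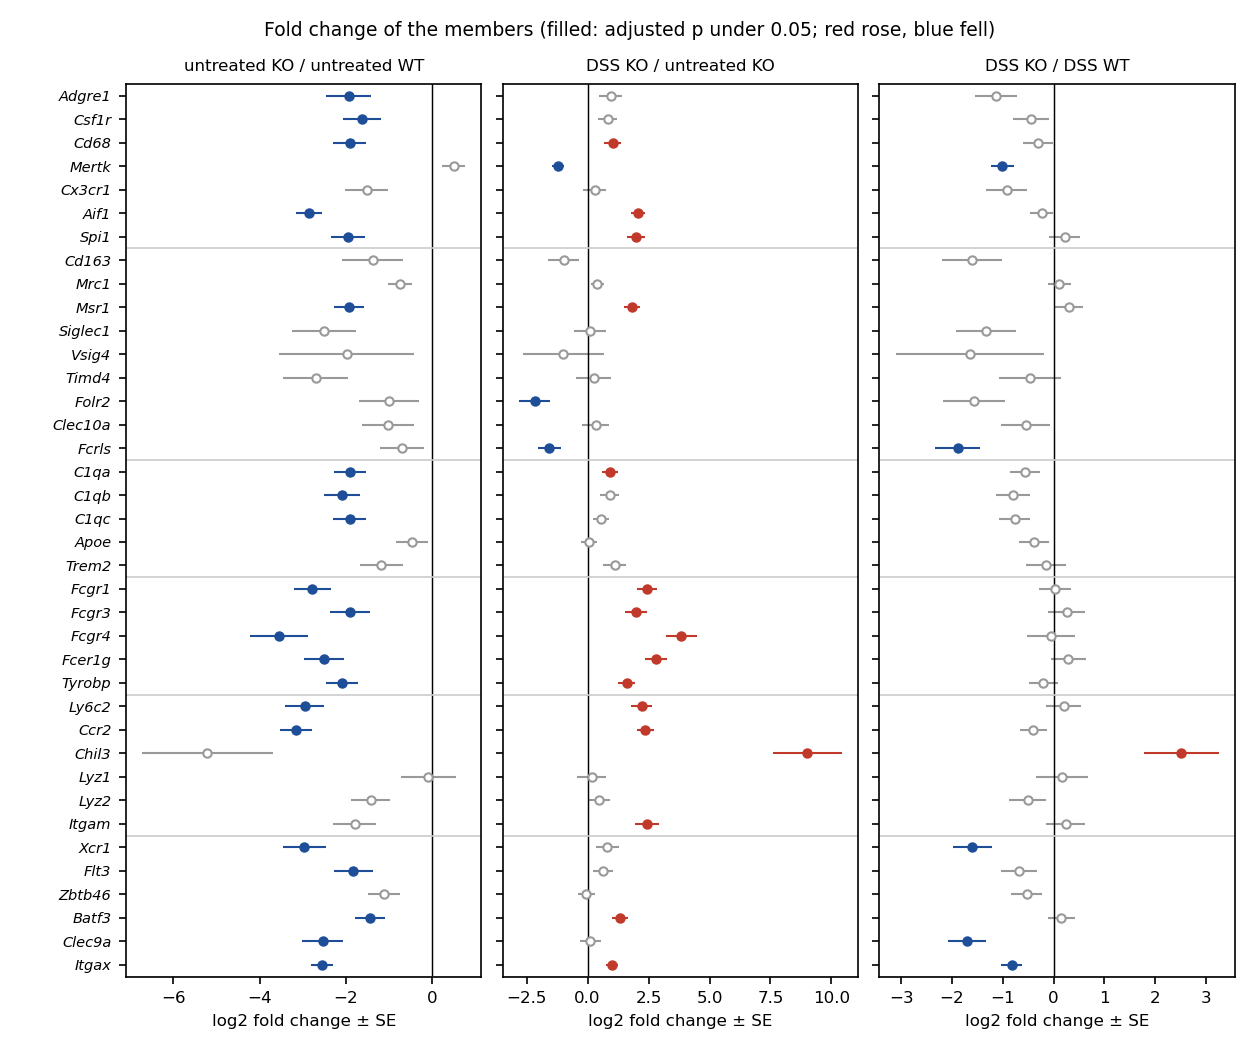
Log2 fold change of each of the 38 genes with its standard error (bars) in untreated KO over untreated WT, DSS-treated over untreated KO, and DSS-treated KO over DSS-treated WT. Filled points passed an adjusted p of 0.05 (red rose, blue fell), and they crowd to the left in the first panel (21 genes), mostly to the right in the second (16 of 19) and are few in the third (6).

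Of the 7 general macrophage genes, 5 fell in the untreated KO colon, and Cx3cr1 and Mertk did not pass the test. Aif1, which encodes the calcium-binding protein IBA1 of macrophages and microglia (chromosome 17, 35170986 to 35176083, GRCm38.p6), had 16.3 and 15.8 CPM in WT and 2.37 and 2.03 CPM in KO libraries without DSS. Under DSS, Aif1 levels were 8.296, 12.5 and 11.6 CPM in WT and 8.96, 11.9 and 6.65 CPM in KO libraries. Both untreated KO libraries lay far below all others, and those of DSS-treated KO overlapped DSS-treated WT. Its log2 fold change in untreated KO against WT was -2.86 ± 0.30 (adjusted p = 0.00163), and in DSS-treated against untreated KO it was 2.06 ± 0.28 (adjusted p = 0.000454). Cd68, a glycoprotein of macrophage lysosomes, had 15.9 and 14.5 CPM in untreated and 7.22, 13.7 and 9.46 CPM in DSS-treated WT libraries. In KO mice, Cd68 had 3.5 and 4.53 CPM without and 10.1, 9.48 and 4.98 CPM with DSS. It fell in untreated KO mice (log2 fold change -1.91 ± 0.38, adjusted p = 0.0152) and rose with DSS in KO mice (log2 fold change 1.03 ± 0.34, adjusted p = 0.0347), but that rise was not called without any 1 of 7 libraries, adjusted p reaching 0.184. Spi1, the gene of PU.1, had 11.9 and 8.17 CPM in WT mice without DSS and 7.33, 9.198 and 10.2 CPM with it. KO Spi1 levels were 2.85 and 2.36 CPM without DSS and 12.5, 13.1 and 5.47 CPM with it. It changed by -1.94 ± 0.40 (adjusted p = 0.0172) in untreated KO mice and by 1.99 ± 0.38 (adjusted p = 0.0024) with DSS in KO mice, where 2 of 3 libraries exceeded every WT library. The falls in untreated KO mice were not called without any 1 untreated library for Cd68 (adjusted p up to 0.11), or without WT untreated 2 or either KO untreated library for Spi1 (up to 0.124).

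Csf1r, the receptor for the growth factors CSF1 and IL-34, had 47.6 and 37.8 CPM in untreated WT and 9.83 and 17.9 CPM in untreated KO libraries. With DSS, Csf1r had 21.8, 43.98 and 34.1 CPM in WT and 31.1, 28.7 and 13.5 CPM in KO libraries. Adgre1, which encodes F4/80, had 13.3 and 9.53 CPM in WT mice without DSS and 7.899, 16.6 and 13.5 CPM with it, against 1.52 and 4.41 CPM in KO mice without DSS and 6.32, 7.25 and 3.72 CPM with it. Both were lower in untreated KO mice, close to the threshold, with a log2 fold change of -1.62 ± 0.44 (adjusted p = 0.0483) for Csf1r and -1.94 ± 0.52 (adjusted p = 0.0454) for Adgre1. Both lost the call without any 1 of 7 libraries (the 4 untreated ones, WT DSS 3, WT DSS 4 and KO DSS 2), with an adjusted p of up to 0.248 for Csf1r and 0.2001 for Adgre1. Cx3cr1, the fractalkine receptor of mature gut macrophages, had 12.9 and 10.1 CPM in WT and 2.93 and 5.09 CPM in KO libraries without DSS. Under DSS, Cx3cr1 levels were 8.07, 11.4 and 8.45 CPM in WT and 4.84, 7.73 and 2.103 CPM in KO libraries. Its log2 fold change was -1.52 ± 0.50 (adjusted p = 0.0854) in untreated KO mice and -0.92 ± 0.40 (adjusted p = 0.111) in DSS-treated KO against WT. None of these 3 genes passed the test for a rise with DSS in KO mice, where the log2 fold changes were 0.82 for Csf1r, 0.95 for Adgre1 and 0.29 for Cx3cr1. After DSS, all KO libraries were below all WT libraries for Adgre1 and Cx3cr1, and neither passed the edgeR test with all libraries. There Adgre1 was called lower by DESeq2 (adjusted p = 0.0186) and without WT DSS 2 (adjusted p = 0.042). Cx3cr1 was called lower there without KO DSS 2 (adjusted p = 0.032). In untreated KO mice Cx3cr1 was called lower by DESeq2 (adjusted p = 0.0153) and in the fit of the 2 untreated groups alone (adjusted p = 0.0266).

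Mertk, a receptor tyrosine kinase with which macrophages engulf dying cells (chromosome 2, 128698915 to 128803162), ran against the other macrophage genes. It had 28 and 26.6 CPM in untreated and 36.5, 39.9 and 24.3 CPM in DSS-treated WT libraries. In KO mice, Mertk had 36.6 and 40.5 CPM without and 11.6, 19.4 and 19.1 CPM with DSS. The untreated KO libraries stood above the untreated WT libraries (log2 fold change 0.50 ± 0.27, adjusted p = 0.275, called only in the fit of these 2 groups alone, adjusted p = 0.0232), and the DSS-treated KO libraries lay below all 7 others. Mertk fell with DSS in KO mice (log2 fold change -1.21 ± 0.24, adjusted p = 0.00341) and was lower in DSS-treated KO than WT mice (log2 fold change -1.01 ± 0.22, adjusted p = 0.00995). Neither difference reached the fold over 3 of the study's own thresholds. The summed smooth muscle level moved the same way across these groups (11014 and 12980 CPM in untreated KO, 762 to 1226 CPM in DSS-treated KO), and its part in the Mertk values was not tested. Axl, a related receptor, fell in KO mice with DSS (log2 fold change -1.30), as did Gas6, a ligand of both that was named after its values had been seen (-0.87).

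**Figure D3:**
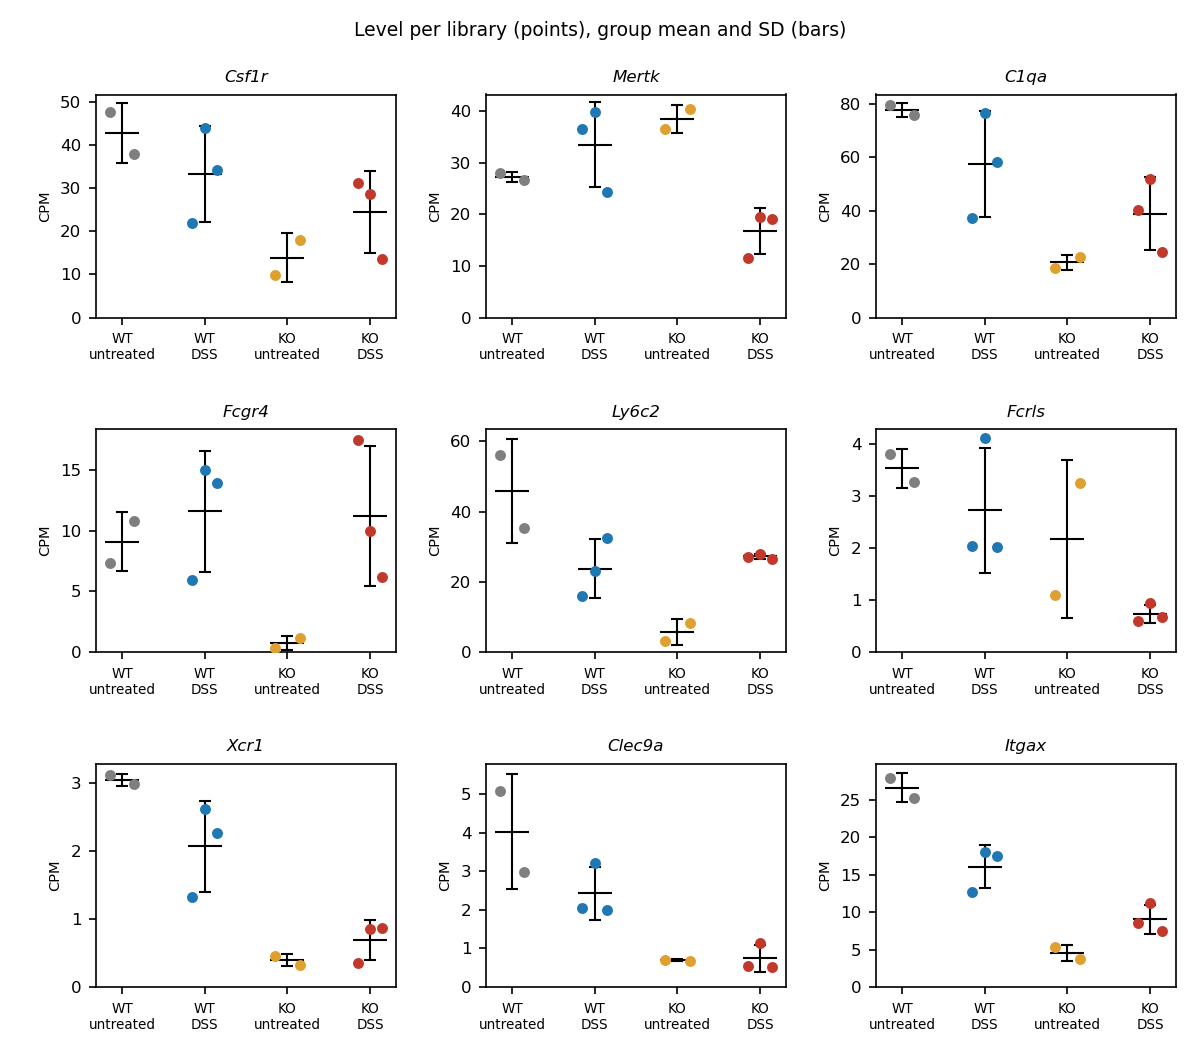
Level in CPM of 9 genes in each library (points) with the group mean and SD (bars), each panel on its own axis from 0. Csf1r, C1qa, Fcgr4 and Ly6c2 are lowest in untreated KO and overlap between genotypes after DSS, whereas Mertk and Fcrls are lowest in DSS-treated KO and Xcr1, Clec9a and Itgax are low in both KO groups.

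Of the 9 receptors of resident macrophages, 1 (Msr1) passed the test for a fall in untreated KO mice. Both untreated KO libraries lay below both untreated WT libraries for all 9, beside 6562 of the 20472 tested genes. The median log2 fold change of the 9 was -1.38. Mrc1, the mannose receptor CD206, had 17.9 and 17.3 CPM in WT mice without DSS and 8.53, 16.5 and 13.7 CPM with it. KO Mrc1 levels were 8.84 and 12.2 CPM without DSS and 14.3, 12.3 and 15.1 CPM with it. It stayed within a narrow span, with -0.74 ± 0.28 (adjusted p = 0.125) in untreated KO mice, and edgeR called it in none of the 5 comparisons. In untreated KO mice it was called lower in the fit of the 2 untreated groups alone (adjusted p = 0.0437) and without WT DSS 2 (adjusted p = 0.0499). Cd163, the scavenger receptor for haemoglobin bound to haptoglobin, had 5.001 and 6.26 CPM in untreated WT and 0.771 and 3.52 CPM in untreated KO libraries. With DSS, Cd163 had 1.59, 5.09 and 3.28 CPM in WT and 1.67, 0.921 and 0.673 CPM in KO libraries. Its untreated KO libraries lay far apart, and the DSS-treated KO libraries were low without passing the test (log2 fold change -1.60 ± 0.59, adjusted p = 0.067), although DESeq2 called them lower (adjusted p = 0.0181). Msr1, the class A scavenger receptor (chromosome 8, 39543232 to 39642750), had 8.52 and 7.62 CPM in WT and 1.68 and 2.56 CPM in KO libraries without DSS. Under DSS, Msr1 levels were 4.204, 8.13 and 5.99 CPM in WT and 9.53, 6.63 and 6.46 CPM in KO libraries. Like Aif1 it fell in untreated KO mice (log2 fold change -1.92 ± 0.35, adjusted p = 0.0118) and rose with DSS in KO mice (log2 fold change 1.82 ± 0.33, adjusted p = 0.00189). The fall was not called without WT untreated 2 or either KO untreated library (adjusted p up to 0.0895).

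Folr2 and Fcrls went down with DSS in KO mice. Folr2, a folate receptor that marks long-lived tissue macrophages, had 3.68 and 3.99 CPM in untreated and 0.571, 2.03 and 1.17 CPM in DSS-treated WT libraries. In KO mice, Folr2 had 0.791 and 3.02 CPM without and 0.378, 0.653 and 0.231 CPM with DSS. Fcrls, an Fc receptor-like scavenger receptor known from mouse macrophages and microglia, had 3.79 and 3.27 CPM in untreated WT, 2.05, 4.103 and 2.02 CPM in DSS-treated WT, 1.11 and 3.25 CPM in untreated KO and 0.595, 0.938 and 0.673 CPM in DSS-treated KO libraries. In both genes the KO untreated 2 library was lower than KO untreated 3, and the DSS-treated KO libraries were all under 1 CPM. Within KO mice the log2 fold change was -2.17 ± 0.65 (adjusted p = 0.0215) for Folr2 and -1.57 ± 0.47 (adjusted p = 0.0224) for Fcrls. Fcrls was also lower in DSS-treated KO than WT mice (log2 fold change -1.89 ± 0.44, adjusted p = 0.0122), a call lost with the replicate block (adjusted p = 0.0679). Without KO untreated 3 the log2 fold change with DSS shrank to -0.89 for Folr2 (adjusted p = 0.367) and -0.59 for Fcrls (adjusted p = 0.391). Neither fall with DSS in KO mice was called without KO DSS 1, without KO DSS 4 or with the replicate block. The remaining receptors were Siglec1, a sialic acid-binding adhesion receptor, Timd4, a receptor for phosphatidylserine, Clec10a, a lectin for galactose, and Vsig4, a complement receptor. None of the 4 was called by edgeR in the model of all 10 libraries, with group means of 0.0339 to 8.59 CPM, and Vsig4 was at 0 in 4 of 10 libraries. DESeq2 called Siglec1 and Timd4 lower in untreated KO mice (log2 fold change -2.50 and -2.70, adjusted p = 0.00316 and 0.00576). So did edgeR in the fit of these 2 groups alone, without WT DSS 2 and without KO DSS 4, and so did the study's own thresholds.

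C1q, the recognition protein that starts the classical complement pathway, is made by macrophages from 3 genes that lie side by side on chromosome 4 (C1qb, 136880126 to 136886200, C1qc, 136889801 to 136892936, and C1qa, 136895916 to 136898844). C1qa had 79.7 and 76 CPM in WT mice without DSS and 37.4, 76.8 and 58.4 CPM with it, against 18.7 and 22.7 CPM in KO mice without DSS and 40.1, 51.9 and 24.5 CPM with it. C1qb had 75.7 and 64.1 CPM in untreated WT, 33.4, 70.3 and 57.3 CPM in DSS-treated WT, 12.8 and 20.1 CPM in untreated KO and 35.6, 38.9 and 17.9 CPM in DSS-treated KO libraries. C1qc had 72.6 and 64.1 CPM in WT mice without DSS and 28.7, 60.5 and 45.5 CPM with it, against 14.7 and 21.5 CPM in KO mice without DSS and 27.4, 34.9 and 16.97 CPM with it. The 3 chains moved together from library to library, and the untreated KO libraries held at most 22.7 CPM of any chain. In untreated KO mice they fell, with log2 fold changes of -1.91 ± 0.37 (adjusted p = 0.014), -2.08 ± 0.42 (adjusted p = 0.0162) and -1.92 ± 0.38 (adjusted p = 0.0162). None was called without any 1 of the 4 untreated libraries (adjusted p up to 0.119). With DSS in KO mice C1qa rose (log2 fold change 0.91 ± 0.33, adjusted p = 0.049), a call lost without any 1 of 7 libraries (adjusted p up to 0.218), while C1qb and C1qc had 0.90 and 0.55 and did not pass. Apoe, the lipid carrier that macrophages and other cells secrete, had 218 and 129 CPM in untreated WT, 133, 195 and 186 CPM in DSS-treated WT, 118 and 134 CPM in untreated KO and 156, 164 and 74.5 CPM in DSS-treated KO libraries and passed no test. Trem2, a lipid-sensing receptor that signals through TYROBP, had group means of 0.812 to 1.97 CPM and was not called with all libraries, although without KO DSS 4 and with the replicate block it was called higher with DSS in KO mice (adjusted p = 0.0253 and 0.0193).

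The Fc receptors, which bind antibody, and the adaptors that carry their signal were all called lower in untreated KO mice and higher with DSS in KO mice. Fcgr1, the high-affinity receptor for IgG that marks macrophages (chromosome 3, 96282909 to 96293969), had 4.89 and 6.61 CPM in WT mice without DSS and 2.76, 5.696 and 4.903 CPM with it, against 0.613 and 1.04 CPM in KO mice without DSS and 5.75, 4.403 and 3.47 CPM with it. Fcgr3, a low-affinity IgG receptor also found on neutrophils and NK cells, had 17.1 and 16.5 CPM in untreated WT, 9.501, 18.9 and 16.1 CPM in DSS-treated WT, 3.08 and 5.86 CPM in untreated KO and 27.3, 14.5 and 11.3 CPM in DSS-treated KO libraries. Fcgr4, which lies beside Fcgr3 on chromosome 1 (171018926 to 171029761) and is also carried by neutrophils in the mouse, had 7.36 and 10.8 CPM in WT mice without DSS and 5.901, 14.95 and 13.9 CPM with it. KO Fcgr4 levels were 0.376 and 1.14 CPM without DSS and 17.5, 9.98 and 6.205 CPM with it. All 3 were lowest in both untreated KO libraries, and the KO DSS 1 library, where neutrophil markers were highest, had the highest Fcgr3 and Fcgr4. Fcer1g, the shared signalling chain of these receptors, had 22.1 and 22.3 CPM in WT mice without DSS and 16.6, 26.6 and 23.6 CPM with it, against 2.83 and 4.99 CPM in KO mice without DSS and 41.01, 26.8 and 13.97 CPM with it. Tyrobp, the adaptor DAP12 used by TREM2 and by receptors of NK cells, had 22.6 and 18.5 CPM in untreated WT and 4.47 and 5.16 CPM in untreated KO libraries. With DSS, Tyrobp had 12.3, 20.1 and 17.96 CPM in WT and 19.5, 15.7 and 8.498 CPM in KO libraries.

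All 5 genes fell in untreated KO mice. The log2 fold change was -2.78 ± 0.43 (adjusted p = 0.00679) for Fcgr1, -1.90 ± 0.47 (adjusted p = 0.0333) for Fcgr3 and -3.55 ± 0.67 (adjusted p = 0.0135) for Fcgr4. For the adaptors it was -2.50 ± 0.46 (adjusted p = 0.0128) for Fcer1g and -2.09 ± 0.36 (adjusted p = 0.0101) for Tyrobp. Without KO untreated 2 each of these falls missed the threshold, and all but that of Fcgr1 also missed it without at least 1 further untreated library (Fcgr3 without WT DSS 4 too). Over all libraries left out the adjusted p reached 0.0596 for Fcgr1 and 0.189 for Fcgr3, the others lying between. All 5 rose with DSS in KO mice, from 1.60 ± 0.34 (adjusted p = 0.00434) for Tyrobp to 3.85 ± 0.66 (adjusted p = 0.00143) for Fcgr4. The interaction passed for each, with log2 differences of 1.89 (Tyrobp) to 3.50 (Fcgr4) between the KO and the WT response. Without KO DSS 1 the rises in KO mice still passed for all 5 (adjusted p up to 0.0118). Without KO untreated 2 the rise of Fcgr3 did not pass (adjusted p = 0.0531) and the other 4 did. In DSS-treated KO against WT, none of the 5 passed, and the log2 fold changes lay between -0.20 and 0.29. The coding sequences of Fcgr3 and Fcgr2b share an identical run of 129 bases, so reads may be split between them. Fcgr2b had a log2 fold change of -2.10 ± 0.35 (adjusted p = 0.00872) in untreated KO mice. With DSS in KO mice it had 2.16 ± 0.33 (adjusted p = 0.000885).

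Ly6c2, the antigen of newly arrived monocytes, had 56.2 and 35.4 CPM in WT and 3.24 and 8.44 CPM in KO libraries without DSS. Under DSS, Ly6c2 levels were 15.9, 23.1 and 32.4 CPM in WT and 27.1, 27.98 and 26.6 CPM in KO libraries. Ccr2, the receptor that brings monocytes out of the bone marrow and into tissue (chromosome 9, 124101918 to 124109140), had 25.99 and 27.1 CPM in untreated WT, 12.9, 28.6 and 18.9 CPM in DSS-treated WT, 2.65 and 3.29 CPM in untreated KO and 14.9, 19.3 and 11.6 CPM in DSS-treated KO libraries. Both genes were lowest in the untreated KO libraries without overlap. The log2 fold change against untreated WT was -2.96 ± 0.45 (adjusted p = 0.00654) for Ly6c2 and -3.16 ± 0.37 (adjusted p = 0.00262) for Ccr2. With DSS in KO mice both rose to levels that overlapped those of DSS-treated WT, by 2.21 ± 0.42 (adjusted p = 0.00241) for Ly6c2 and 2.36 ± 0.34 (adjusted p = 0.000639) for Ccr2. T cells also use both genes, and the 19 T and NK cell genes summed to 233 and 315 CPM in untreated WT, 83.3 to 142 CPM in DSS-treated WT, 16.8 and 28.8 CPM in untreated KO and 30.6 to 55.3 CPM in DSS-treated KO mice. Coding sequences of Ly6c2 and its neighbour Ly6c1 are 97.7% identical, so reads may be split between them. Ly6c1 itself, known from endothelium and T cells, had 202 and 284, 192, 218 and 369, 16.1 and 18.7, and 360, 333 and 481 CPM in the same order of libraries.

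Itgam, the integrin chain CD11b of monocytes, macrophages and neutrophils, had 10.6 and 11.8 CPM in untreated and 9.105, 20.5 and 14.5 CPM in DSS-treated WT libraries. In KO mice, Itgam had 2.59 and 3.85 CPM without and 27.9, 14.3 and 9.78 CPM with DSS. It did not pass in untreated KO against WT (log2 fold change -1.80 ± 0.50, adjusted p = 0.0506) and rose with DSS in KO mice (log2 fold change 2.43 ± 0.48, adjusted p = 0.00316). The untreated fall was called by DESeq2 (adjusted p = 0.00216), in the fit of the 2 untreated groups alone (adjusted p = 0.0105) and with the replicate block (adjusted p = 0.0159). Fits with no filter or at least 10 counts in every library, and the study's own thresholds, called it too. Chil3, the chitinase-like protein YM1 of monocytes, neutrophils and alternatively activated macrophages (chromosome 3, 106147554 to 106167564), had 0.772 and 0.624 CPM in WT mice without DSS and 0.968, 1.92 and 2.24 CPM with it. KO Chil3 levels were 0.0395 and 0 CPM without DSS and 21.3, 5.84 and 2.12 CPM with it. Its counts were 2 and 0 in untreated KO against 1466, 349 and 101 in DSS-treated KO libraries, so that the highest library held most of the group's reads. The ratio of the scaled counts of these groups was 655 (95% counting interval 181 to 5420, for counting error only). Against DSS-treated WT the log2 fold change was 2.51 ± 0.73 (adjusted p = 0.0297), and the call was lost without KO DSS 1 (adjusted p = 0.121) and without any 1 of the DSS-treated WT libraries. With the replicate block it was lost too (adjusted p = 0.252). In DSS-treated KO against DSS-treated WT, 12 of 15 neutrophil markers were called higher, beside 14.9% of all tested genes. Chil4, whose coding sequence is 94.4% identical to that of Chil3, was at 0 in all but the KO DSS 1 library (0.508 CPM).

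Lysozyme, which cleaves bacterial cell walls, is encoded in mice by Lyz2 in macrophages and by Lyz1 in the Paneth cells of the small intestine. The pair lies side by side on chromosome 10 (Lyz2, 117277541 to 117282272, and Lyz1, 117287795 to 117292868). Over their coding sequences of 444 bases each they differ at 22 positions and share a longest identical run of 118 bases, so that short reads from one can match the other and the split of counts between them is uncertain. The first 120 bases of the coding sequences, from the GENCODE transcripts, are shown because they hold 11 of these differences, which stand in capitals.
Lyz1: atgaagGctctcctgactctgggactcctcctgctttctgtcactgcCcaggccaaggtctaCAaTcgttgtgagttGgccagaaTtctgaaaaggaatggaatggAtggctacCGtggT
Lyz2: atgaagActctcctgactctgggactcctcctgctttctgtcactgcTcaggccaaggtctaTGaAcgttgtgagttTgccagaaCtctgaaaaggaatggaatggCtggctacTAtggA
Lyz2 had 266 and 175 CPM in WT mice without DSS and 93.6, 219.6 and 176 CPM with it, against 95.1 and 68.6 CPM in KO mice without DSS and 152, 128 and 63.8 CPM with it. Lyz1 had 12.7 and 6.77 CPM in untreated WT, 11.8, 8.85 and 6.77 CPM in DSS-treated WT, 14.5 and 3.79 CPM in untreated KO and 13.2, 12.8 and 4.65 CPM in DSS-treated KO libraries. By group mean per kilobase of exon Lyz2 was the more abundant in all 4 groups, and its untreated KO libraries were low without passing the test (log2 fold change -1.43 ± 0.46, adjusted p = 0.0767), although DESeq2 called them lower (adjusted p = 0.00942). Lyz1 varied within groups by more than between them, and it passed in none of the 5 comparisons. The treatment of reads that match several genes was not given in the sources used here.

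Of the 6 dendritic cell genes, 5 fell in untreated KO mice. Xcr1 and Clec9a, markers of the XCR1-bearing subset, were also low in KO mice after DSS, whereas Batf3 was not. Xcr1, the chemokine receptor of the dendritic cells that present antigen to CD8 T cells, had 3.12 and 2.99 CPM in untreated WT and 0.455 and 0.329 CPM in untreated KO libraries. With DSS, Xcr1 had 1.33, 2.63 and 2.27 CPM in WT and 0.348, 0.854 and 0.862 CPM in KO libraries. Clec9a, the receptor with which the same cells sense dead cells (chromosome 6, 129408862 to 129424764), had 5.097 and 2.97 CPM in WT mice without DSS and 2.06, 3.23 and 2.005 CPM with it, against 0.712 and 0.672 CPM in KO mice without DSS and 0.552, 1.16 and 0.526 CPM with it. All 5 KO libraries were below all 5 WT libraries for both genes. In untreated KO mice the log2 fold change was -2.97 ± 0.50 (adjusted p = 0.00887) for Xcr1 and -2.54 ± 0.47 (adjusted p = 0.0125) for Clec9a. After DSS it was -1.60 ± 0.39 (adjusted p = 0.014) for Xcr1 and -1.70 ± 0.37 (adjusted p = 0.00956) for Clec9a, and neither rose with DSS in KO mice past the test (0.81 and 0.11). Without either untreated KO library the untreated falls were not called (adjusted p up to 0.0828 for Xcr1 and 0.0939 for Clec9a), and that of Clec9a was also lost without WT untreated 2. The Xcr1 call after DSS was lost without WT DSS 3 (adjusted p = 0.0556) and with the replicate block (adjusted p = 0.0753).

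Itgax, the integrin chain CD11c of dendritic cells and gut macrophages that some T cells also carry (chromosome 7, 128129526 to 128150657), had 27.9 and 25.2 CPM in WT and 5.32 and 3.75 CPM in KO libraries without DSS. Under DSS, Itgax levels were 12.7, 17.98 and 17.4 CPM in WT and 8.51, 11.2 and 7.42 CPM in KO libraries. All KO libraries were below all WT libraries here too, with a log2 fold change of -2.55 ± 0.26 (adjusted p = 0.0015) without treatment and -0.83 ± 0.20 (adjusted p = 0.0154) with DSS. Within KO mice Itgax rose with DSS (log2 fold change 1.00 ± 0.24, adjusted p = 0.00757). The lower level in KO than WT mice after DSS was not called without WT DSS 3 or without WT DSS 4 (adjusted p = 0.0608 and 0.0582). With the replicate block it was not called either (adjusted p = 0.0757). Batf3, the transcription factor needed in mice for the XCR1-bearing subset and also expressed by T cells, had 1.64 and 1.12 CPM in untreated and 0.872, 1.17 and 1.37 CPM in DSS-treated WT libraries. In KO mice, Batf3 had 0.573 and 0.443 CPM without and 1.19, 1.29 and 1.33 CPM with DSS. It fell in untreated KO mice (log2 fold change -1.44 ± 0.35, adjusted p = 0.0307) and rose with DSS in KO mice (log2 fold change 1.32 ± 0.32, adjusted p = 0.00878) to levels that overlapped those of DSS-treated WT. Flt3, the growth factor receptor of dendritic cell precursors, had 5.16 and 2.55 CPM in WT mice without DSS and 1.903, 3.201 and 2.84 CPM with it. KO Flt3 levels were 1.36 and 0.815 CPM without DSS and 1.77, 2.01 and 1.18 CPM with it. Flt3 fell in untreated KO mice (log2 fold change -1.83 ± 0.45, adjusted p = 0.0328). Without KO untreated 3 the rises of Itgax and Batf3 with DSS in KO mice were not called (adjusted p = 0.0796 and 0.0822). The untreated fall of Batf3 was not called without any 1 of the 4 untreated libraries (adjusted p up to 0.189). That of Flt3 was not called without WT untreated 2, WT DSS 4 or either KO untreated library (adjusted p up to 0.215). Zbtb46, a transcription factor of conventional dendritic cells and endothelium, had 3.01 and 2.99 CPM in untreated WT and 0.949 and 1.79 CPM in untreated KO libraries. With DSS, Zbtb46 had 2.03, 2.04 and 1.703 CPM in WT and 1.28, 1.76 and 0.947 CPM in KO libraries. It was not called by edgeR, and DESeq2 called it lower in untreated KO mice (log2 fold change -1.11, adjusted p = 0.0299).

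Ratios of pairs of genes within a library, chosen after the values had been seen and given without a test, do not depend on how libraries were scaled. The first 3 pairs set the DSS-treated KO libraries apart or nearly so, and the next 2 did not. Fcer1g over Csf1r was 0.466 and 0.591 in untreated WT and 0.762, 0.605 and 0.693 in WT given DSS. In KO mice it was 0.288 and 0.279 without DSS and 1.32, 0.933 and 1.04 with DSS. The DSS-treated KO libraries were the highest and the untreated KO libraries the lowest. Itgam over Cx3cr1 was 0.82 and 1.17, 1.13, 1.80 and 1.72, 0.885 and 0.756, and 5.77, 1.85 and 4.65 in the same order. Fcgr3 over Adgre1 was 1.29 and 1.73, 1.20, 1.14 and 1.20, 2.03 and 1.33, and 4.32, 2.00 and 3.04. In the third pair the lowest DSS-treated KO library, KO DSS 2, lay just under the higher untreated KO library. Ly6c2 over Adgre1 was 4.21 and 3.71 in untreated WT and 4.29, 3.86 and 7.15 in DSS-treated KO mice, which overlapped. It was 2.01, 1.39 and 2.40 in WT given DSS and 2.13 and 1.92 in untreated KO mice. Csf1r over Ptprc, the gene of the leukocyte antigen CD45, was 0.35 and 0.597 in untreated WT and 0.493, 0.805 and 0.475 in WT given DSS. In KO mice it was 0.425 and 1.73 without and 0.46, 0.524 and 0.445 with DSS, so the untreated KO libraries were not the lowest. Further pairs, all over Ptprc, were computed, and none set the DSS-treated KO libraries apart from all others. Fcer1g over Ptprc was 0.461 to 0.607 there, against 0.329 to 0.487 in DSS-treated WT and 0.122 and 0.484 in untreated KO mice. Adgre1 and Xcr1 over Ptprc were lower in every DSS-treated KO than in every DSS-treated WT library. The numerators of the first 3 ratios are expressed by neutrophils too, and neutrophil genes summed to 1009, 392.2 and 532 CPM in the DSS-treated KO libraries.

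**Figure D4:**
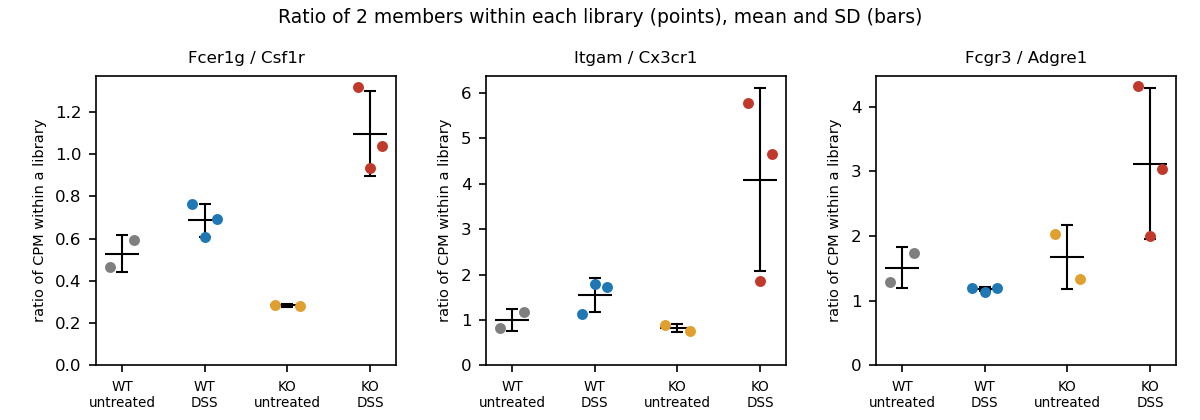
Ratio of the CPM of 2 genes within each library (points) with the group mean and SD (bars), for Fcer1g over Csf1r, Itgam over Cx3cr1 and Fcgr3 over Adgre1, each on its own axis from 0. The 3 DSS-treated KO libraries lie highest in the first 2 panels, where KO DSS 1 reaches 1.32 and 5.77.

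Because Spi1 was among the genes that fell in untreated KO mice, the promoters of the 38 genes were searched for the core sequence that PU.1 binds. RefSeq promoters of GRCm38.p6 (250 bases before to 50 after each start) were matched for 30 of the 38 genes, as 35 promoters. None was matched for Adgre1, Csf1r, Spi1, Msr1, Siglec1, Clec10a, C1qa or Tyrobp. All of these but Siglec1 and Clec10a were called lower in untreated KO mice. The PU.1 core GAGGAAGT, searched on both strands, was in 4 of the 35 (Fcgr4, C1qc and both starts of Ly6c2) and in 3.2% of all 32851 promoters. The 2 promoters of Ly6c2 overlap, so the 4 stand for 3 of the 30 genes. The interferon element (GAAA, any 2 bases, GAAA) was in 2 of the 35 (Fcgr4 and Aif1) and in 3.44% of all promoters. The stretches of Fcgr4 and C1qc that hold a PU.1 core are shown, and that of Aif1 for the interferon element, with the matches in capitals (ACTTCCTC is the core read on the other strand). All 3 genes fell in untreated KO mice, as did 21 of the 38 genes with or without a match.
Fcgr4, chr1:171018828-171018934, plus strand: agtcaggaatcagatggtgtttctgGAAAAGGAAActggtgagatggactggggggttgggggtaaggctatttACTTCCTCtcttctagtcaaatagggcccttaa
C1qc, chr4:136893077-136893134, minus strand: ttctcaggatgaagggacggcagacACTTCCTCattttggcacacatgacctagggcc
Aif1, chr17:35176175-35176234, minus strand: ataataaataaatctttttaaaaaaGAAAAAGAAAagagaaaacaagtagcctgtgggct
Positions are counted from the start on which each RefSeq promoter is set, which for C1qc and Aif1 is not the outer end of the gene given above. The PU.1 match of Fcgr4 begins at -24 and that of C1qc at -195, and the interferon element begins at -73 in Fcgr4, without overlap with the core, and at -157 in Aif1. A match says that these letters are there, not that the factor binds. Of the 16 interferon response genes, 13 fell in untreated KO mice and 12 were lower in DSS-treated KO than WT mice, beside 5.97% and 14.9% of all tested genes. With DSS in KO mice 4 rose, near the 23.1% of all tested genes.

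Among the 17 growth factors and chemokines that feed or attract phagocytes, 5 were lower and 2 higher in untreated KO than WT mice, beside 5.97% and 3.87% of all tested genes. In KO mice 10 rose and 1 fell with DSS (23.1% and 22.3% of all tested genes), and 4 were higher in DSS-treated KO than WT mice (14.9%). Ccl8, a chemokine for monocytes and T cells, had 27.4 and 26.4 CPM in untreated WT, 3.82, 11 and 12.6 CPM in DSS-treated WT, 0.692 and 1.26 CPM in untreated KO and 4.81, 10.2 and 7.89 CPM in DSS-treated KO libraries. Ccl2, the main ligand of CCR2, had 1.87 and 1.86 CPM in WT and 0.198 and 0.458 CPM in KO libraries without DSS. Under DSS, Ccl2 levels were 1.82, 2.07 and 4.26 CPM in WT and 3.59, 3.198 and 7.53 CPM in KO libraries. It fell in untreated KO mice (log2 fold change -2.47 ± 0.60, adjusted p = 0.0326) and rose with DSS in KO mice (log2 fold change 3.82 ± 0.60, adjusted p = 0.000936), which is the pattern of Ccr2. Ccl3, made by activated macrophages and other leukocytes, had 1.87 and 2.25 CPM in WT mice without DSS and 0.428, 1.13 and 1.24 CPM with it, against 0.178 and 0.0286 CPM in KO mice without DSS and 18.4, 2.26 and 1.94 CPM with it, and it was higher in DSS-treated KO than WT mice. Ccl20, an epithelial chemokine, had 1.24 and 0.904 CPM in untreated and 6.98, 2.71 and 4.13 CPM in DSS-treated WT libraries. In KO mice, Ccl20 had 5.596 and 4.56 CPM without and 7.84, 26.2 and 56.7 CPM with DSS. Ccl20 was higher in the same comparison (log2 fold change 2.71 ± 0.61, adjusted p = 0.0108).

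The ligands of 3 receptors among the 38 genes (CSF1R, FLT3 and CX3CR1) are given here, chosen after their values had been seen. Csf1 had 15.1 and 17.4 CPM in untreated WT, 8.03, 16.8 and 10.97 CPM in DSS-treated WT, 8.13 and 13.2 CPM in untreated KO and 7.55, 11.2 and 6.14 CPM in DSS-treated KO libraries and passed no test. Il34, the other CSF1R ligand, had 10 and 8.82 CPM in WT mice without DSS and 17.7, 16.2 and 17.6 CPM with it. KO Il34 levels were 26.2 and 15.5 CPM without DSS and 14.4, 20.2 and 25.6 CPM with it. Il34 was higher in untreated KO than WT mice (log2 fold change 1.15 ± 0.29, adjusted p = 0.0352), where Csf1r was lower. Flt3l, the ligand of FLT3, had 11.2 and 9.103 CPM in WT mice without DSS and 7.34, 8.597 and 7.96 CPM with it, against 8.09 and 5.86 CPM in KO mice without DSS and 7.41, 8.39 and 6.52 CPM with it and passed no test. Cx3cl1, the ligand of CX3CR1, had 61.3 and 68.7 CPM in untreated WT and 122 and 103 CPM in untreated KO libraries. With DSS, Cx3cl1 had 76.5, 91.2 and 80.9 CPM in WT and 53.1, 74.7 and 72.5 CPM in KO libraries. It was higher in untreated KO mice (log2 fold change 0.79 ± 0.17, adjusted p = 0.0224) and fell with DSS in KO mice (log2 fold change -0.76 ± 0.16, adjusted p = 0.00384).

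Of 9 receptors for growth factors and chemokines of phagocytes, 4 were lower in untreated KO mice, Csf3r, Il10ra and Csf2rb among them, and 5 rose with DSS in KO mice, beside 5.97% and 23.1% of all tested genes. Ccr1, a receptor for CCL3 on monocytes and neutrophils, had 5.403 and 5.09 CPM in WT and 2.93 and 2.45 CPM in KO libraries without DSS. Under DSS, Ccr1 levels were 4.54, 6.13 and 5.44 CPM in WT and 15.2, 8.52 and 10.3 CPM in KO libraries. Its level was higher in DSS-treated KO than WT mice (log2 fold change 1.08 ± 0.23, adjusted p = 0.00811), whereas Csf2ra was lower (-0.40). Of 17 transcription factors, 5 were lower and 1 higher in untreated KO mice, beside 5.97% and 3.87% of all tested genes. After DSS, 2 were higher and 3 lower in KO than in WT mice, near the 14.9% of all tested genes called in each direction. Cebpb, a factor of monocytes, granulocytes and inflamed epithelium, had 4.68 and 4.35 CPM in untreated and 6.09, 5.97 and 6.303 CPM in DSS-treated WT libraries. In KO mice, Cebpb had 4.98 and 4.93 CPM without and 25.3, 14.6 and 14.5 CPM with DSS. Its log2 fold change was 1.57 ± 0.22 (adjusted p = 0.00146) in that comparison. Maf, a factor of resident macrophages and of T cells, had 17.03 and 13.2 CPM in WT mice without DSS and 6.98, 14.4 and 10.8 CPM with it. KO Maf levels were 9.12 and 12.3 CPM without DSS and 6.56, 5.64 and 3.58 CPM with it. Its log2 fold change in DSS-treated KO against WT was -1.03 ± 0.30 (adjusted p = 0.0287).

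Another 29 macrophage and monocyte markers were compared in the same way, with 8 lower in untreated KO mice (5.97% of all tested genes). In KO mice given DSS, 11 rose against untreated KO and 6 fell, beside 23.1% and 22.3% of all tested genes. After DSS 5 were lower and 1 higher in KO than in WT mice, beside 14.9% of all tested genes in each direction. Ms4a7, a membrane protein of resident macrophages, had 15.9 and 13.9 CPM in untreated WT and 2.35 and 4.03 CPM in untreated KO libraries. With DSS, Ms4a7 had 6.9, 13.99 and 10.4 CPM in WT and 2.802, 4.91 and 2.99 CPM in KO libraries. It was low in both KO groups (log2 fold change -2.21 ± 0.40, adjusted p = 0.0118 without treatment and log2 fold change -1.55 ± 0.32, adjusted p = 0.00767 with DSS). Cd14, the coreceptor for bacterial lipopolysaccharide, had 55.2 and 53.6 CPM in WT and 36.2 and 32.04 CPM in KO libraries without DSS. Under DSS, Cd14 levels were 98.6, 79.3 and 91.5 CPM in WT and 151, 130.2 and 214 CPM in KO libraries. It was the 1 that was higher after DSS (log2 fold change 0.88 ± 0.17, adjusted p = 0.00578).

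Of 19 further dendritic cell markers, 7 were lower and 1 higher in untreated KO than WT mice, beside 5.97% and 3.87% of all tested genes. After DSS 4 were lower and 1 higher, beside 14.9% in each direction. As a list the 19 did not shift in that comparison. Their log2 fold changes had a median of -0.02 and ran from -5.79 to 2.81, with 9 above and 10 below 0. Itgae, the integrin CD103 of gut dendritic cells and of T cells in the epithelium, had 8.97 and 7.54 CPM in untreated and 4.41, 6.96 and 6.07 CPM in DSS-treated WT libraries. In KO mice, Itgae had 2.37 and 2.35 CPM without and 1.699, 2.58 and 1.83 CPM with DSS. It was lower in KO mice without treatment (log2 fold change -1.81 ± 0.29, adjusted p = 0.00751) and with DSS (log2 fold change -1.51 ± 0.23, adjusted p = 0.0022), as were Xcr1 and Clec9a. Snx22, a marker of the XCR1-bearing subset, had 2.91 and 1.99 CPM in WT mice without DSS and 2.205, 2.24 and 2.31 CPM with it. KO Snx22 levels were 0.653 and 1.13 CPM without DSS and 1.31, 0.971 and 0.715 CPM with it. After DSS its log2 fold change was -1.17 ± 0.30 (adjusted p = 0.0191). Cd86, a costimulatory molecule of activated antigen-presenting cells, had 9.101 and 7.53 CPM in untreated WT and 1.76 and 1.19 CPM in untreated KO libraries. With DSS, Cd86 had 3.299, 4.21 and 4.78 CPM in WT and 5.52, 3.87 and 2.67 CPM in KO libraries. It fell in untreated KO mice (log2 fold change -2.50 ± 0.37, adjusted p = 0.00587) and rose with DSS in KO mice (log2 fold change 1.45 ± 0.34, adjusted p = 0.00687). T and NK cell genes, which share Itgae, were lower in DSS-treated KO than WT mice in 15 of 19 cases.

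**Figure D5:**
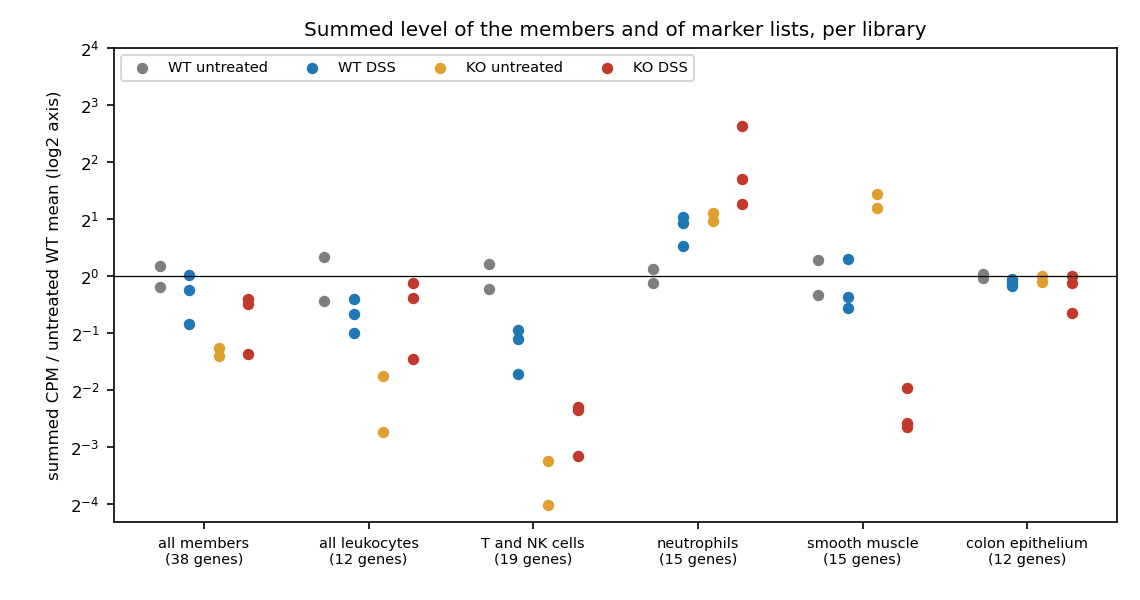
Summed CPM of the 38 genes and of the marker lists of other cell types in each library, divided by the mean of untreated WT, on a log2 axis. The 38 genes are lowest in untreated KO together with leukocyte and T and NK cell genes, neutrophil genes are highest in DSS-treated KO, and smooth muscle genes run from above WT in untreated KO to below it in DSS-treated KO.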

How the data were processed

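RNA of mouse colon was sequenced from 10 libraries made with a stranded mRNA kit. The deposited table gives raw read counts of each gene in each library, made by the authors. The submitters' processing notes name the genome build mm10 and, with no role given, StringTie 2.1.3b, Trimmomatic 0.38, Bowtie2 2.3.4.1 and HISAT2 2.1.0. The handling of reads that match several genes, and any use of strand in counting, were not given in the sources used here. Another 30 columns of normalized values per library, 4 columns of authors' means and 8 columns of the authors' own comparisons (fold change, log CPM and p-values) were not used. Count columns were assigned to groups by name. Library numbers in the table and in the sample titles are not the same, and the table's numbers are used.

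The count analysis used edgeR 4.0.16 and limma 3.58.1 in R 4.3.3. The default expression filter, set on the 4 groups, kept 20472 of 29320 genes. Library sizes were scaled by TMM, and 1 quasi-likelihood model with group means held all 10 libraries. In each of 5 comparisons p-values were adjusted after Benjamini and Hochberg across the tested genes, and calls needed an adjusted p under 0.05. Levels are CPM, fold changes are log2 with their standard error, and a lone untreated library in a fit that leaves one out was assumed to vary like the other groups. No pair of libraries within a group agreed within sampling noise (mean chi-square per gene 44.0 to 179). The fit was tested on simulated data.

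The 38 genes and the 15 lists of other genes were chosen with earlier results of these data known. By rule, values per library were given for 18 genes that define a role group and for up to 3 further called genes per group, and the others by range. Of the other lists, up to 4 called genes with the largest change in a comparison served as examples. Symbols of 228 of 234 listed genes were in the table. Some listed genes are not reported here. Positions and promoters come from RefSeq (GRCm38.p6), and exon lengths and coding sequences from GENCODE transcripts of the same assembly. Alternatives were RLE scaling, DESeq2 1.42.0, no filter, a minimum of 10 counts per library, a fit restricted to the compared groups, the library number as a block, each library left out in turn, and the study's own thresholds (a fold over 3 with p under 0.01).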

Additional observations from a re-analysis of the deposited data

Results flagged for a closer look

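The response to DSS (DSS-treated against untreated) differed between KO and WT mice for 16 of the 38 genes, by the interaction test of edgeR (adjusted p under 0.05 after Benjamini and Hochberg). It was higher in KO mice for 15 and lower for 1, beside 13.8% and 13% of all tested genes. The values are the KO response minus the WT response on the log2 scale. For the monocyte genes the difference was 3.15 for Ly6c2, 2.76 for Ccr2, 2.03 for Itgam and 7.72 for Chil3, the last resting on 2 reads in untreated KO mice. Neutrophils also express Itgam and Chil3. Among Fc receptors and adaptors the difference was 2.81 for Fcgr1, 2.16 for Fcgr3, 3.50 for Fcgr4, 2.79 for Fcer1g and 1.89 for Tyrobp. Macrophage genes gave 2.63 for Aif1, 2.16 for Spi1, 1.61 for Cd68 and 2.23 for the scavenger receptor Msr1. The dendritic cell genes Itgax and Batf3 gave 1.73 and 1.59. Mertk alone went the other way, at -1.503. In the same test 12 of 12 pan-leukocyte genes and 16 of 19 genes of T and NK cells were called higher. All 15 smooth muscle genes were called lower, and the part of these shifts was not tested. For the 15 genes with a higher response in KO mice, the group mean was lowest in untreated KO mice. After DSS, Itgax was still lower and Chil3 higher in KO than WT mice, and the other 13 did not pass that test. The interaction call of Cd68 was lost without WT DSS 2, WT DSS 4, KO DSS 1 or KO DSS 2. That of Itgam was lost without WT DSS 2, WT DSS 4 or KO DSS 1, and that of Batf3 without WT DSS 3. Some of the 16 calls were also lost without 1 untreated library.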

How the results depend on the processing

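None of the 62 calls of the 38 genes changed sign, and 25 held in every other fit, the study's own thresholds not being counted as a fit. Fold changes that had not passed the test did change sign in some fits (Lyz1 in untreated KO mice from -1.36 to 0.58). Leaving out each library in turn, the counts ranged from 4 to 27 for genes lower in untreated KO than WT mice, 3 to 11 lower and 0 to 1 higher in DSS-treated KO than WT mice, 13 to 19 higher and 1 to 3 lower with DSS in KO mice, and 9 to 19 higher and 0 to 1 lower for the interaction. DESeq2 called 10 genes lower in DSS-treated KO than WT mice and 28 lower in untreated KO mice. The study's own thresholds left 3 lower in DSS-treated KO mice, 1 lower with DSS in KO mice and 0 lower for the interaction. A fit of the compared groups only gave 1 gene higher in untreated KO mice (Mertk) and 0 higher in DSS-treated KO mice. With at least 10 counts in every library Chil3 was not tested, which left 0 higher in DSS-treated KO mice. The interaction has no fit of 2 groups. Deviations from the group mean had correlations of -0.103 to 0.123 over the 10 pairs of libraries with the same number. In groups of 2 libraries the deviations mirror each other, so these pairs are not independent. The values cannot decide whether the number marks a pairing or a shared batch. With the replicate block, 20 genes were lower in untreated KO mice, 2 lower and 0 higher in DSS-treated KO than WT mice, 14 higher and 1 lower with DSS in KO mice, and 14 higher for the interaction. The causes were not tested. With 2 untreated libraries per genotype, 1 library decides many calls, and at 49689389 to 72197887 reads the low genes (Vsig4, Chil3 in untreated KO) rest on few reads. Other scalings moved the median of all genes by under 0.1 (log2).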
